A study of Homo sapiens with 6 samples.

Results

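On the long arm of human chromosome 2, a boundary between topologically associating domains (TADs) lay just beyond the start of CWC22 in LNCaP cells given control siRNA, and no boundary was called there after CTCF siRNA. The region described here is the 65 bins of 40 kb, of 77356 in all, whose midpoints lie within about 1 Mb before and 1.5 Mb after the bin chr2:180920001-180960000 (hg19), which holds the lost boundary and is called the position below. The region was chosen by a measured value, since this bin had 1 of the highest rises in insulation value among lost boundaries. That rise, and every other value drawn from contacts around the position, is a description and carries no test. The genes followed were ZNF385B, CWC22, UBE2E3 and ITGA4. Distances are measured from the called domain edge at base 180940000, and "before" and "after" mean lower and higher coordinates.

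The study asked how CTCF depletion alters chromatin conformation, and used Hi-C: chromatin is fixed, its DNA cut (here with BglII) and ligated, and each sequenced read pair reports a contact between places that lay close together in the nucleus. LNCaP is an established prostate cancer cell line. Cells received either a Non-Target siRNA pool at 20 nM (named control siRNA, 2 libraries) or, at the same dose, a pool of 4 siRNAs against CTCF (CTCF siRNA, 4 libraries), were transfected again midway, and were collected after 144 h. Some CTCF siRNA libraries are numbered as further versions of a replicate, without a statement of what separates them. All groups are LNCaP cells with no allele changed, and knockdown by siRNA lowers a protein without removing its gene. The libraries of a condition were pooled into 1 map and 1 TAD list, so there is no spread between replicates for any value below. Every interval is a 95% interval for counting error alone, and no test between the conditions was possible. Intervals are exact Poisson for 1 map and exact conditional binomial for the ratio of the maps or for a share. Values corrected for coverage, given below, take their interval from the uncorrected counts and leave out the error of the correction. The level of CTCF itself is not measured by these maps.

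Counted where the deposited values are whole numbers, which includes the whole region, the control siRNA map held 16587066 contacts and that of CTCF siRNA held 56207891, which is 3.39 times as many. Cis contacts, within a chromosome, made up 59.7% and 70.4% of these. Over the 65 bins their share was 58.1% and 57.2%. The median chromosome 2 bin had 363 cis contacts in control siRNA and 1104 in CTCF siRNA, so values of single bins in control siRNA are the less precise ones, and all 65 bins passed the filter on low counts.

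CTCF is a zinc finger protein that binds DNA and, with the ring-shaped cohesin complex, anchors chromatin loops. Cohesin is thought to extrude a growing loop until it meets CTCF bound in the blocking orientation, and TADs are the stretches of chromosome that contact themselves more than their surroundings as a result. A boundary is the place that few contacts cross, and it can keep an enhancer of a neighbouring domain away from a promoter.

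The 4 siRNAs of the CTCF pool are shown because they define the treatment, as given in the labels, 5′ to 3′ with no base capitalised. By exact match, siRNA 1, siRNA 3 and siRNA 4 lay in coding sequence of CTCF on the forward strand of chromosome 16 (GRCh37), and siRNA 2, of 18 bases as the labels give it, had no exact match in the gene.
siRNA 1, chr16:67644951-67644969: gaugaagacugaaguaaug
siRNA 2, not placed: ggagaaagaagaagagua
siRNA 3, chr16:67644838-67644856: gaagaugccugccacuuac
siRNA 4, chr16:67645048-67645066: gaacagcccauaaacauag

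The position and its flanking bins were searched on both strands of GRCh37, the sequence of the hg19 build, for the core of the CTCF motif, spelled CCA, 2 free bases, AG, 2 free bases and GGC. The position held 1 match, the bin before held 0 and the bin after held 1. Both matches were on the forward strand in intergenic sequence, 15.3 kb and 54.0 kb after the called edge. In the lines below the match is in capitals with 12 bases on either side, and 2 matches in introns of UBE2E3 on the reverse strand are given for comparison, 1 in the bin after the CTCF siRNA edge at 181820000 and 1 in the bin of the next control siRNA boundary. A further match in the latter bin, on the forward strand in an intron of LINC01934, starts at 181957143. Matches near other CTCF siRNA edges are not shown. They are a forward match at 180707382 in an intron of ZNF385B, near the edge at 180660000, and reverse matches between 180291437 and 180305580, near that at 180340000.
position, chr2:180955254-180955289, forward: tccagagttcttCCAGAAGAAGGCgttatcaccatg
bin after, chr2:180993958-180993993, forward: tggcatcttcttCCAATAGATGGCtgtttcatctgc
near the CTCF siRNA edge, chr2:181856279-181856314, reverse: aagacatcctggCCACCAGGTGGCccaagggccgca
next boundary, chr2:181923530-181923565, reverse: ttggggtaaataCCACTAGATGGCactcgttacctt

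The core is short, and a match is common. It stood in 30 of the 65 bins (46.2%), against 56.3% of 4623 usable bins of chromosome 2, with 49 matches in the region in all. A match marks letters in the reference and says nothing of whether CTCF was bound there.

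The called domains changed at the position and also at the next boundary after it. The control siRNA edge before it, at 179300000, had a CTCF siRNA edge 40 kb away and counted as maintained. In control siRNA a TAD of 1640 kb ran from 179300000 to 180940000 and held the starts of 9 protein-coding genes. Among these were TTN, which encodes the giant muscle protein titin, SESTD1, ZNF385B, which encodes a zinc finger protein, and CWC22, which encodes a spliceosome-associated protein needed to load the exon junction complex. The TAD that followed, of 960 kb, ran from 180940000 to 181900000 and held the start of 1 protein-coding gene, UBE2E3, which encodes an E2 ubiquitin-conjugating enzyme. It also held SCHLAP1, a long noncoding RNA gene known for its link to aggressive prostate cancer. A TAD of 1080 kb from 181940000 to 183020000 came next. It began with ITGA4, the gene of integrin alpha 4, a subunit of leukocyte adhesion receptors, followed by CERKL, NEUROD1, ITPRID2 and PPP1R1C.

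In CTCF siRNA a TAD of 1040 kb, from 180660000 to 181700000, lay across the position. The nearest CTCF siRNA edge to 180940000 was 280 kb away, at 180660000, so the boundary counted as lost under the tolerance of 40 kb. Of 3247 control siRNA boundaries on the autosomes, 1596 (49.2%) were lost by this rule. The new TAD was not the sum of its control siRNA neighbours. Its start lay inside the body of ZNF385B (180306709 to 180726339, reverse strand), and a stretch from 180340000 to 180660000 belonged to no TAD. TTN, CCDC141 and SESTD1, which shared a control siRNA TAD with CWC22, fell in a separate TAD of 840 kb that ended at 180340000. The next control siRNA boundary, between 181900000 and 181940000, was also lost by this rule. The edge at 181900000 had its nearest CTCF siRNA edge 80 kb away at 181820000, the start of a TAD of 1120 kb that held the starts of both UBE2E3 and ITGA4.

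The domain lists therefore joined no pair of protein-coding genes across the position. By start site, ZNF385B (180726339, 214 kb before the edge) and CWC22 (180872024, 68.0 kb before) lay in the 1040 kb TAD, whereas UBE2E3 (181831975, 892 kb after) and ITGA4 (182321929, 1382 kb after) lay in the TAD that followed. Among protein-coding genes between 179300000 and 183020000, the 5 pairs newly put in 1 TAD were all of UBE2E3, with ITGA4, CERKL, NEUROD1, ITPRID2 and PPP1R1C, across the next boundary, and none of these counted when genes were placed by their whole body, since the body of UBE2E3 runs past the control siRNA edge at 181900000. At the start of that stretch, PRKRA and PJVK were also put in 1 TAD with PDE11A, RBM45 and OSBPL6, which lie before it. The edge there shifted by 40 kb, within the tolerance. With noncoding genes included, 25 pairs were joined across the position, made of 5 genes before and 5 genes after it. SCHLAP1 (start 181556831, 617 kb after) was among the 5 genes after it that were joined to ZNF385B and CWC22. Its body ends at 181781666, beyond the end of the CTCF siRNA TAD at 181700000, so the last part of it was outside.

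**Figure D1:**
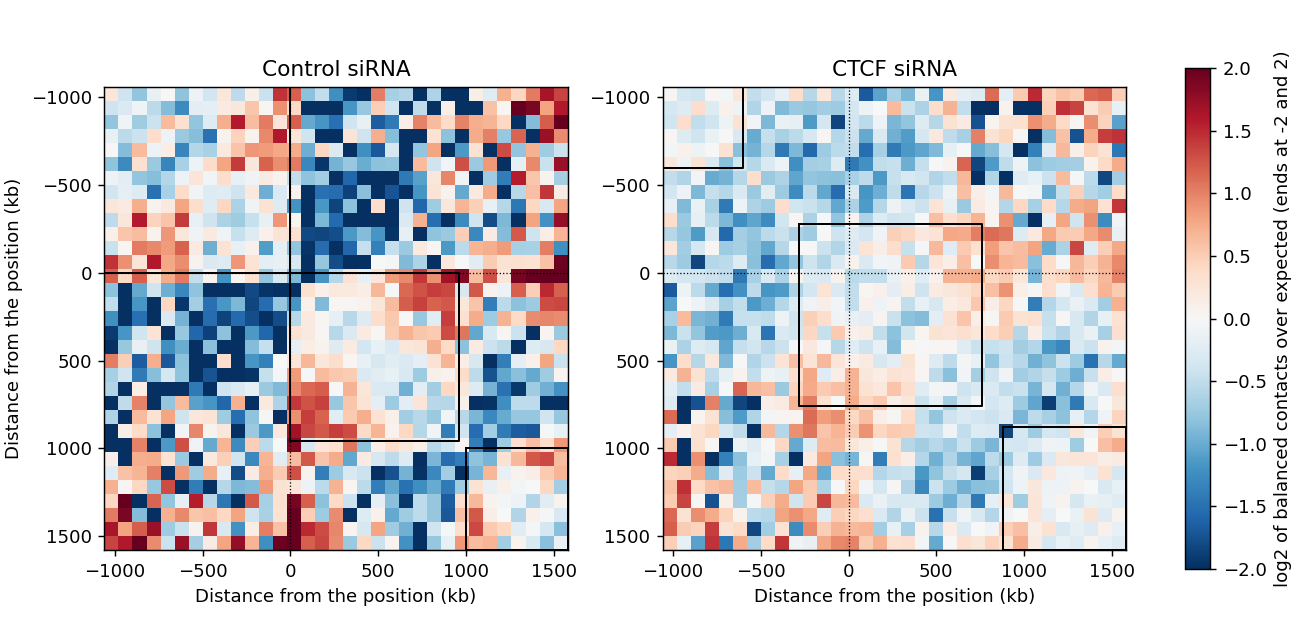
Contacts of the region in control siRNA (left) and CTCF siRNA (right), as log2 of iteratively balanced contacts over those expected from distance, in squares of 80 kb. Both axes give the distance from the position in kb, dotted lines mark the position and black squares the called TADs. In control siRNA the block between the TADs that meet at the position is mostly blue, while in CTCF siRNA the 1040 kb TAD lies over the position and is mostly pale, with its outer corner red.

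Contacts across the position were counted between the 10 bins (400 kb) on either side, with the bin itself left out, and set against the mean contacts of chromosome 2 at the same distances in the same map. In control siRNA 122 contacts crossed the position where 353.9 were expected, which was 0.345 of expected (0.286 to 0.412). In CTCF siRNA 974 crossed where 1366 were expected, or 0.713 (0.669 to 0.759). The ratio of these values was 2.07 (1.71 to 2.52). The median ratio was 0.879 over 4260 bins of chromosome 2 with all pairs usable. Of these, 17.3% had a ratio of 1.5 or more, 187 bins were at or above 2.07, and 80 bins (1.88%) had as few crossing contacts in control siRNA. The contacts within the flanks moved the opposite way. They were 1.12 of expected in control siRNA (1196 contacts) and 0.653 in CTCF siRNA (2593 contacts), a ratio of 0.582 (0.543 to 0.624). Both flanks took part, with a ratio of 0.609 (0.545 to 0.681) before the position, where CWC22 and the start of ZNF385B lie, and 0.565 (0.518 to 0.618) in the stretch after it, which holds no protein-coding start.

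Part of the size of these ratios moves with the coverage of the maps. The median cis count (contacts of a bin within its chromosome) of the 65 bins was 1.15 of the chromosome median in control siRNA and 0.926 in CTCF siRNA. The position held 16 BglII sites, against a median of 11 per bin on chromosome 2. The region had a median GC content of 36.6%, against 38.8% for chromosome 2. The usable chromosome 2 bins were ranked by GC and split into 10 groups. Mean coverage in control siRNA was 1.02 of the chromosome mean at the lowest GC, 0.920 in group 8 and 1.15 at the highest. In CTCF siRNA it ran from 0.542 to 1.97. The part of this difference in the ratios was not tested. When expected contacts were scaled by the coverage of both bins the ratio across the position was 4.87 (4.03 to 5.93), and with iterative balancing it was 3.12 (2.58 to 3.80). The ratio within the flanks was 1.49 (1.39 to 1.60) and 0.901 (0.841 to 0.966) in these settings, so its direction turned with coverage scaling. Taken singly, the flanks before and after the position were at 1.30 and 1.62 with coverage scaling. With balancing they were at 0.860 (0.770 to 0.961) and 0.943 (0.863 to 1.03), so the flank after no longer differed detectably.

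The insulation value, the log2 of contacts over expected across a bin divided by that within its flanks, cancels much of the coverage of a region. At the position it was -1.70 ± 0.14 (counting SD) in control siRNA and 0.13 ± 0.05 in CTCF siRNA, a rise of 1.83 ± 0.15. A value near 0 means that as many contacts cross a bin as the flanks would predict. The rise was 1.70 with coverage scaling and 1.79 with balancing. It ranked 4 among 1072 lost boundaries of the autosomes that had a value and at least 50 expected contacts, and 14 of 42575 autosomal bins rose by more. A rise of 1 or more was found at 2.06% of these bins, at 16.2% of the lost boundaries and at 9.37% of the maintained boundaries with a value. Just above it in rank was a bin in COL19A1 on chromosome 6 (1.85) and just below it a bin in SYT1 on chromosome 12 (1.76). Over the lost boundaries the median change was 0.58, and the medians taken separately in each map were -0.78 and -0.14. Over the maintained boundaries with a value the median change was 0.36, and the separate medians were -1.09 and -0.66.

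**Figure D2:**
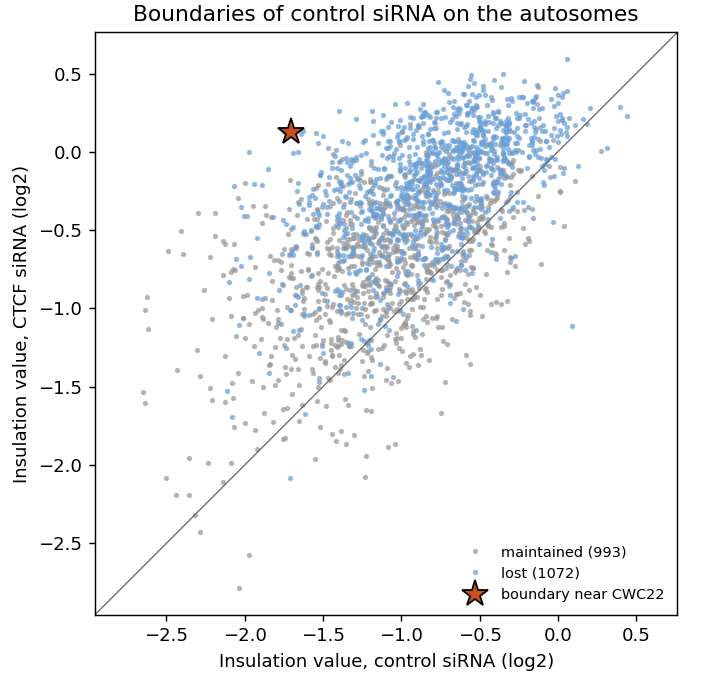
Insulation value (log2) of the control siRNA boundaries on the autosomes that had a value, in control siRNA (horizontal axis) and CTCF siRNA (vertical axis), with 993 maintained boundaries in grey, 1072 lost boundaries in blue and the boundary near CWC22 as a star. The diagonal marks equal values, and the star lies at -1.70 and 0.13, at the upper left edge of the points.

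The 3 lost boundaries most like it, by the Euclidean distance between the pairs of insulation values, are given with their nearest protein-coding gene. The bin chr13:71160001-71200000, 477376 bases from KLHL1, went from -1.75 to 0.13, but on 24 control siRNA contacts across. The bin chr2:156160001-156200000, 445135 bases from the potassium channel gene KCNJ3, went from -1.64 to 0.11. The bin chr12:79720001-79760000, within the synaptotagmin gene SYT1, went from -1.63 to 0.13. All differed from the boundary near CWC22 by less than their counting error in both maps. They were picked for having the nearest values, so this closeness follows from the choice.

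The change was not limited to 1 bin. Of the 65 bins, 4 rose by 1 or more, and they were adjacent. They were the bin before the position (1.09), the position (1.83) and the next bins after it (2.05 and 1.22). The lowest control siRNA value of the region, -1.92 ± 0.14 with 113 contacts across, stood in the bin after the position, chr2:180960001-181000000, which holds the forward motif match that starts at 180993970. That bin was at 0.14 ± 0.05 in CTCF siRNA with 1072 contacts. In all, 27 bins had a higher value in CTCF siRNA, 20 of them by more than 2 counting SD, and 38 had a lower value, 31 of them by more than 2 counting SD. Over all autosomal bins with a value, 31% were higher and 24.1% were lower by more than 2 counting SD. Neighbouring bins share contacts, so these counts are not of independent bins.

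The highest control siRNA value on each side of the position was lower in CTCF siRNA. Within the body of ZNF385B the control siRNA value reached 0.75 at 180440001 to 180480000, where it was -0.23 in CTCF siRNA. In the stretch between the position and SCHLAP1 it reached 0.94 at 181320001 to 181360000 and 0.53 in CTCF siRNA. After CTCF siRNA the profile was flatter, and its lowest value was -0.52, in the bin of UBE2E3 at 181840001 to 181880000. The next control siRNA boundary, in the bin 181920001 to 181960000 over the end of UBE2E3, went from -1.02 ± 0.12 to -0.32 ± 0.07. There, contacts across were 0.458 of expected (162 contacts) in control siRNA and 0.397 (542 contacts) in CTCF siRNA, a ratio of 0.867 (0.726 to 1.04). This ratio was 1.53 with balancing and 2.76 with coverage scaling, so the direction of the crossing contacts at that boundary was not settled by these maps.

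**Figure D3:**
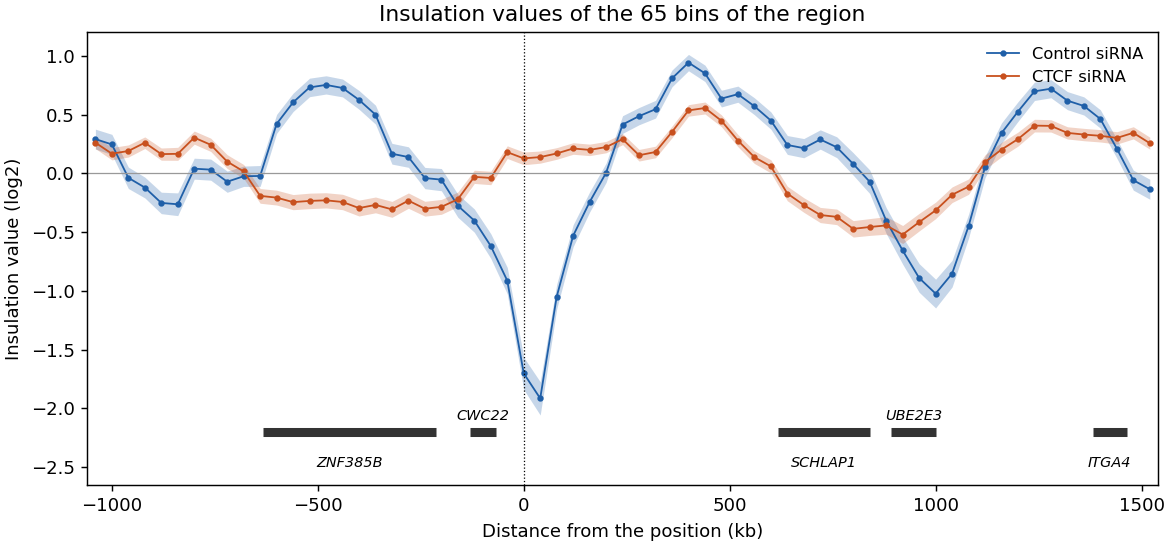
Insulation value (log2, vertical axis) of the 65 bins against the distance of each bin from the position in kb, for control siRNA (blue) and CTCF siRNA (orange), with bands of 1 counting SD and gene bodies as bars. The blue line falls to -1.92 next to the position and to -1.02 at the end of UBE2E3, and the orange line stays between -0.52 and 0.56.

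The direction in which single bins made their contacts gave a view that does not depend on the coverage of the bin itself. It draws in part on the same contacts as the insulation value by which the position was chosen, so it is no separate evidence. Of the contacts of a bin within 2 Mb, the share that went to higher coordinates was 37.9% at the position in control siRNA and 73.9% in the bin after it. The bin 80 kb after the position sent 84.1% that way. This turn from contacts mainly before to contacts mainly after is what a boundary looks like from inside. In CTCF siRNA the same bins gave 52.8%, 57.0% and 63.5%, and the bin before the position, at 38.8% in control siRNA, gave 65.7%.

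Comparison within a map at matched distance, again of contacts around the chosen position, also leaves out the depth. Over 1200 kb on either side of the position, contacts of bins 80 to 200 kb apart that crossed it were 0.298 of expected in control siRNA, and those that stayed on a side of it were 0.985. Crossing contacts were thus 0.303 (0.192 to 0.456) of the others. In CTCF siRNA the values were 0.557 and 0.569, or 0.980 (0.831 to 1.15). At 240 to 400 kb crossing over other contacts was 0.261 (0.190 to 0.352) in control siRNA and 1.30 (1.17 to 1.44) in CTCF siRNA. At 840 to 1200 kb it was 0.353 (0.282 to 0.443) and 1.03 (0.899 to 1.18). In control siRNA all 5 distance classes lay between 0.261 and 0.353, and in CTCF siRNA all lay between 0.980 and 1.30. The contacts on a side of the position also cross other called edges. These lie at 180340000, 180660000, 181700000 and 181820000 in CTCF siRNA, and at 181900000 and 181940000 in control siRNA. A value near 1 is therefore relative to a reference that holds edges, and no balanced or coverage-scaled version is given.

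**Figure D4:**
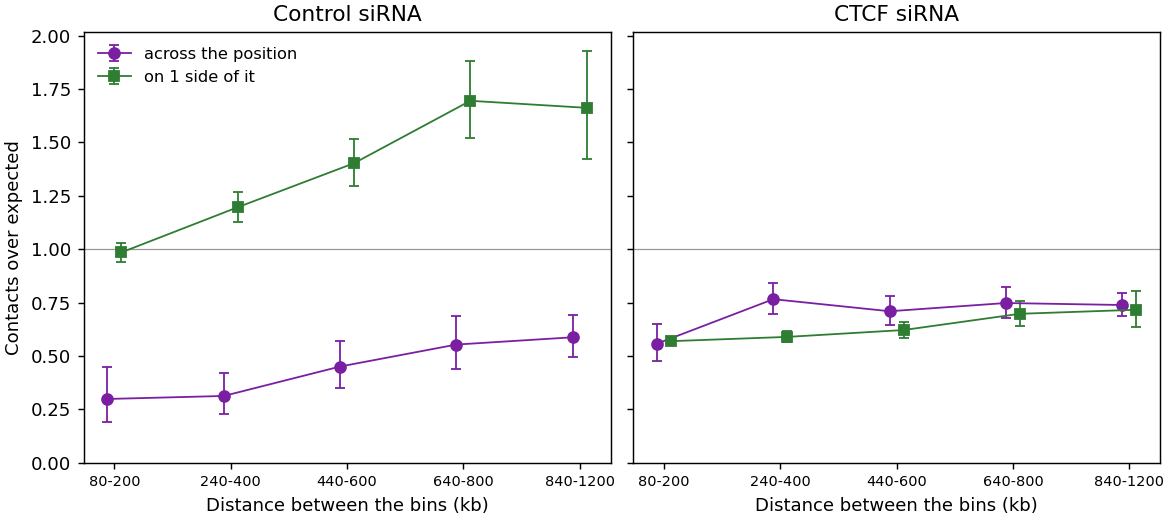
Contacts over expected (vertical axis) for bin pairs that cross the position (circles) and pairs on a side of it (squares), by the distance between the bins in kb, in control siRNA (left) and CTCF siRNA (right), with 95% counting intervals. The circles lie below the squares in control siRNA at each distance and beside or above them in CTCF siRNA.

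Whole domains showed a smaller difference than the 400 kb around the position. Between the 2 control siRNA TADs that met there, 613 contacts were 0.609 of expected (0.562 to 0.659) in control siRNA and 2880 were 0.744 (0.717 to 0.772) in CTCF siRNA, a ratio of 1.22 (1.12 to 1.34). This ratio was 1.73 with balancing and 2.83 with coverage scaling. Within the 1040 kb TAD of CTCF siRNA, contacts across the position went from 151, or 0.390 of expected, to 1177, or 0.785, a ratio of 2.01 (1.70 to 2.40). In CTCF siRNA the contacts across (0.741 to 0.832) lay within counting error of those within the part after the position, at 0.772 (0.748 to 0.796), and above those within the part before, at 0.485 (0.446 to 0.528). In control siRNA those parts were at 1.38 and 0.774. The ratio across was 2.71 with balancing and 4.54 with coverage scaling. In these settings the contacts across in CTCF siRNA, at 1.08 (1.02 to 1.14) and 1.60 (1.51 to 1.69), lay above those of the part after, at 0.927 (0.899 to 0.956) and 1.34 (1.30 to 1.38). The control siRNA values of the parts after and before were 1.01 and 0.946 with balancing, and 0.857 and 0.997 with coverage scaling, so their order turned with the latter.

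At the same time contacts were lower between neighbouring stretches on the ZNF385B side. The stretch from 179300000 to the start of the new TAD at 180660000, which holds TTN, CCDC141, SESTD1 and most of the body of ZNF385B, was set against the stretch from there to the position, which holds the ZNF385B start and CWC22. These had 531 contacts in control siRNA, 1.27 of expected (1.16 to 1.38), and 862 in CTCF siRNA, 0.532 of expected (0.497 to 0.569). The ratio was 0.420 (0.376 to 0.469). It was 0.547 (0.490 to 0.610) with balancing and 0.870 (0.780 to 0.971) with coverage scaling. It was thus lower in CTCF siRNA each time, but by amounts that differ over 1.5 times. Other contacts on that side did not keep this direction. Within the new TAD before the position the ratio was 0.627 (0.537 to 0.734) uncorrected and 1.23 (1.05 to 1.44) with coverage scaling.

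The contacts between the ends of the control siRNA TAD after the position, a pattern often seen where a loop joins the ends of a domain, were counted between the first 5 and the last 5 bins of that TAD. In control siRNA they were 124, which was 3.08 of expected (2.57 to 3.68), and in CTCF siRNA 173, or 1.09 (0.933 to 1.26), a ratio of 0.353 (0.279 to 0.448). The corner of the control siRNA TAD before the position had 10 contacts in control siRNA, too few for its level to be told from expected (0.329 to 1.26). The ratio at the corner after the position was 0.561 (0.443 to 0.713) with balancing and 0.936 (0.739 to 1.19) with coverage scaling, so with the latter no difference was detectable at this depth. In that setting the corner stood at 2.21 of expected in control siRNA and 2.07 in CTCF siRNA. The corner of the 1040 kb TAD of CTCF siRNA had 16 contacts in control siRNA, 0.495 of expected, and 106 in CTCF siRNA, 0.828 of expected, a ratio of 1.67 (0.984 to 3.03). That ratio was 1.91 (1.12 to 3.47) with balancing and 3.95 (2.32 to 7.16) with coverage scaling.

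The start sites of the genes, taken as 3 bins each, show the change gene by gene. ZNF385B had 389 contacts with the 1 Mb before the position in control siRNA and 83 with the 1 Mb after it. In CTCF siRNA it had 698 on either side. The share after the position was 17.6% (14.3% to 21.3%) in control siRNA and 50% (47.3% to 52.7%) in CTCF siRNA, where distance alone would give 31.5% and 32.2%. From 1200 kb after the position to the end of the region the order of the uncorrected values over 5 bins was the other way, and at 1400 kb the ZNF385B start stood at 1.80 of expected in control siRNA and 1.41 in CTCF siRNA. Within 1 Mb, the ZNF385B start went from fewer contacts across the position than distance predicts to more.

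CWC22, the gene closest to the position, showed the same direction. It had 235 contacts before and 81 after in control siRNA, and 371 and 559 in CTCF siRNA. The share after the position was 25.6% (20.9% to 30.8%) in control siRNA and 60.1% (56.9% to 63.3%) in CTCF siRNA, against 46.2% and 46.4% from distance alone. Per expected contact, those after the position were 1.79 times higher in CTCF siRNA (1.42 to 2.29) for CWC22 and 2.15 times higher (1.71 to 2.74) for ZNF385B. These values were 2.54 and 2.94 with balancing, and 4.26 and 4.70 with coverage scaling. Contacts before the position had ratios of 0.414 (0.350 to 0.489) for CWC22 and 0.475 (0.419 to 0.539) for ZNF385B. Those ratios were 0.570 and 0.680 with balancing. With coverage scaling they were 0.878 (0.744 to 1.04) and 0.994 (0.877 to 1.13), so no difference before the position was detectable in that setting.

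On the other side, SCHLAP1 had 42 contacts before the position in control siRNA, 0.560 of expected, and 244 in CTCF siRNA, 0.834 of expected, a ratio of 1.49 (1.07 to 2.12), which was 2.08 with balancing and 3.88 with coverage scaling. Its share of contacts after the position was 92.3% in control siRNA and 80.02% in CTCF siRNA. Distance alone would give 84.2% and 83.8%. UBE2E3 had 41 contacts before the position in control siRNA and 165 in CTCF siRNA, and per expected contact these did not differ detectably (ratio 1.05, 0.744 to 1.52). With balancing and with coverage scaling the ratio was 1.56 (1.11 to 2.26) and 2.67 (1.89 to 3.86). The share of UBE2E3 contacts that lay after the position was 91.0% (88.03% to 93.5%) in control siRNA and 80.7% (77.9% to 83.3%) in CTCF siRNA. Distance alone would give UBE2E3 87.0% and 86.9%. With the 400 kb just after the position its start had 163 contacts in control siRNA, 2.73 of expected (2.32 to 3.18), and 246 in CTCF siRNA, 1.04 of expected (0.917 to 1.18). That ratio, 0.383 (0.313 to 0.469), was 0.641 (0.524 to 0.787) with balancing and turned to 1.13 (0.924 to 1.39) with coverage scaling. Some of these contacts are also among those between the ends of the control siRNA TAD after the position, so the values overlap. ITGA4 lies beyond the next boundary and outside the 1 Mb counted, so contacts around its own start are not among these values. Of its contacts with the 1 Mb on either side of the position, 74.9% lay after it in both maps. Distance alone would give ITGA4 81.0% in control siRNA and 82.4% in CTCF siRNA. Its contacts before the position were 53 in control siRNA, 1.97 of expected, and 108 in CTCF siRNA, 1.13 of expected, a ratio of 0.572 (0.408 to 0.810). That ratio was 0.846 (0.604 to 1.199) with balancing and turned to 1.46 (1.04 to 2.07) with coverage scaling.

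**Figure D5:**
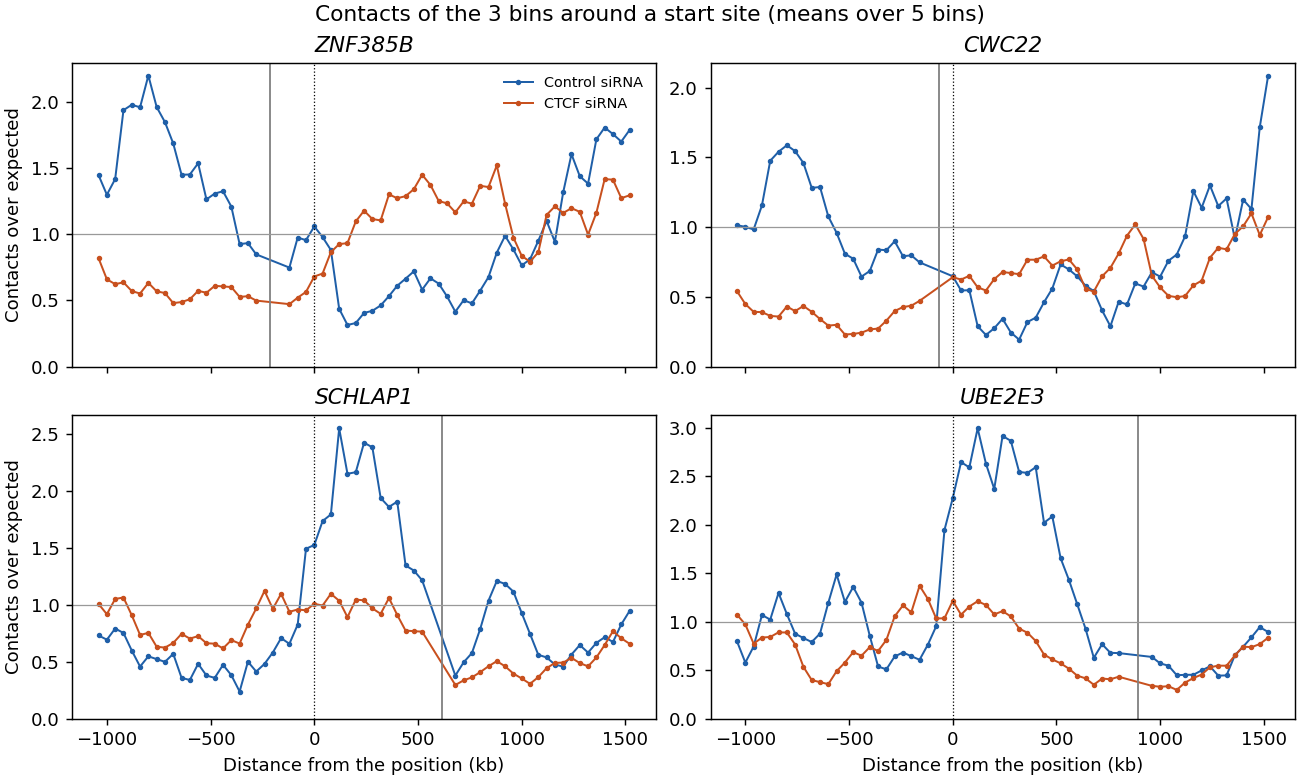
Contacts over expected (vertical axis) of the 3 bins around the start sites of ZNF385B, CWC22, SCHLAP1 and UBE2E3 along the region, against distance from the position in kb, each dot being the value over 5 neighbouring bins, in control siRNA (blue) and CTCF siRNA (orange). A dotted line marks the position and a grey line the start site. The values are not corrected for coverage. The lines of ZNF385B and CWC22 cross near the position, with blue above orange before it, and blue lies above orange again in most bins more than 1 Mb after it.

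Contacts between whole gene bodies were few. CWC22 and UBE2E3 shared 2 contacts in control siRNA and 27 in CTCF siRNA, 0.255 and 0.871 of expected, with a ratio of 3.42 whose interval ran from 0.859 to 29.7. CWC22 and ITGA4 shared 3 and 10 contacts, a ratio of 0.921 (0.237 to 5.21). ZNF385B and UBE2E3 shared 31 and 77, a ratio of 0.655 (0.426 to 1.03). ZNF385B and ITGA4 shared 24 and 41, or 1.85 and 0.886 of expected, a ratio of 0.478 (0.282 to 0.828).

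Over these 4 pairs there were 60 contacts in control siRNA, 1.09 of expected, and 155 in CTCF siRNA, 0.749 of expected, a ratio of 0.688 (0.508 to 0.944). The direction did not hold. It was 1.15 (0.848 to 1.58) with balancing, 1.86 (1.37 to 2.55) with coverage scaling and 1.41 (0.905 to 2.27) when 3 bins at each start site stood for the gene. No change of contact between the protein-coding genes on opposite sides was therefore settled by these maps. ZNF385B and SCHLAP1, which the new TAD joins by their starts, shared 37 contacts in control siRNA and 232 in CTCF siRNA, 0.5003 and 0.803 of expected, a ratio of 1.61 (1.13 to 2.34). CWC22 and SCHLAP1 shared 12 and 66, with a ratio of 1.39 (0.746 to 2.83), an interval that includes 1. The ratios of both SCHLAP1 pairs are uncorrected. No balanced or coverage-scaled version of them is given, so whether their direction holds was not tested.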

How the data were processed

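Per the methods, the authors mapped Hi-C reads to hg19 with HiCUP and Bowtie (1.1.0), tagged duplicates with Picard (1.121), pooled the libraries of each condition and called TADs with a hidden Markov model on the directionality index. The deposited contact values, 1 per pair of 40 kb bins, appear to be of a mixed unit. Between 9400001 and 48120000 on each chromosome most are not whole numbers, for a reason that is not stated. Elsewhere all are whole within 0.001 and were taken as read-pair counts. The stretch with values that are not whole was left out here. The deposited TAD coordinates were used as given.

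Bins with a cis count of at least 10% of the chromosome median in both maps were kept. Expected contacts were means by distance on chromosome 2 in each map. For the insulation values of bins on other autosomes they were means on the chromosome of the bin. Insulation values used flanks of 400 kb and at least 50% usable pairs, and their counting SD came from the Poisson counts. Facing TAD edges at most 100 kb apart formed 1 boundary, which was lost where no CTCF siRNA boundary lay within 40 kb. Genes came from GENCODE release 44 on GRCh37 and were placed by start site. Python 3.11.15, NumPy 2.4.6 and SciPy 1.17.1 were used. The code for the insulation change was run on simulated maps without coverage differences between bins, so that run says nothing about the effect of coverage. Named genes were the 4 followed, other protein-coding genes of the region and its TADs, SCHLAP1, and the 3 lost boundaries with the most similar values. COL19A1 (next in rank), LINC01934 (at a motif match) and PDE11A, RBM45 and OSBPL6 (in a TAD before the region) were named outside this rule, after their values were seen. Members, lists and positions were chosen with earlier results of these data known. Alternatives were other flanks, expected values, coverage corrections, filters, boundary tolerances and gene placements.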

Additional observations from a re-analysis of the deposited data

How the results depend on the processing

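Of 36 alternatives to 6 results, 22 left the value within its counting error or the count within 1.5 times, 11 moved it and 3 turned its direction. The position was chosen for its rise in insulation value of 1.83. The alternatives draw largely on the same contacts, so their shared sign is no separate evidence. This rise stayed above 0 in all of them. It was 1.53 with flanks of 200 kb, 2.15 without contacts of bins closer than 3 bins apart, and 1.09 with the position moved 1 bin before. The ratio of contacts across the position, 2.07, was 1.56 in a window of 800 kb, 1.35 with the position moved 1 bin before, 4.87 with coverage scaling and 3.12 with balancing. The ratio between the flanking TADs, 1.22, was 1.095 with expected values from all autosomes, 2.83 with coverage scaling and 1.73 with balancing. The ratio for gene pairs across the position, 0.688, turned to 1.86 with coverage scaling, 1.15 with balancing and 1.41 with 3 bins at the start sites. The count of gene pairs joined across the position, 0 for protein-coding genes, was 25 with all annotated genes. The boundary was lost at each tolerance tried, which follows from the nearest CTCF siRNA edge being 280 kb away. The cause was not tested for any of these moves beyond the change of setting itself.

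No paired analysis was possible because the authors deposited 1 pooled map per siRNA, and no replicate was left out for the same reason. Depth limits the gene pairs, with 2 to 31 control siRNA contacts per protein-coding pair across the position.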
